A study of Mus musculus with 9 samples.

Results

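The antioxidant and glutathione genes are 53 genes that encode the enzymes and regulators by which a cell removes superoxide and peroxides, keeps protein thiols reduced, and makes and uses glutathione. They were chosen as a list of gene symbols, and all 53 were found among the 55471 gene identifiers of the count files. Of these, 50 had enough counts to be tested among 14918 genes in all. Superoxide dismutases turn superoxide into hydrogen peroxide, which catalase, glutathione peroxidases and peroxiredoxins reduce further. Glutathione and thioredoxin supply the electrons for glutathione peroxidases and peroxiredoxins, and are themselves regenerated with NADPH. The transcription factor NRF2 (gene Nfe2l2), held low by KEAP1, switches on many of these genes through the antioxidant response element. Activated T cells raise their peroxide output with mitochondrial respiration, and their glutathione supply is known to be needed for growth after activation.

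The data are RNA sequencing counts from 9 libraries of mouse CD8+ T cells that carry OT-I, a transgenic receptor for an ovalbumin peptide. The control group (n = 4) is labelled Bdh1-WT;shCtrl, with an intact Bdh1 gene and a hairpin against the luciferase of fireflies, a gene absent from mice. The group called DKO (n = 5) is labelled Bdh1-KO;shOxct1, a Bdh1 knockout with a hairpin against Oxct1, which targets ketone body use at 2 enzymes. All cells were activated in culture with antibodies to CD3 and CD28 and with IL-2, transduced, and sorted on the Ametrine reporter. Activation lasted 24 h, IL-2 was at 50 U/mL, and culture after transduction lasted 2 days. The cells were moved into C57BL/6 (CD45.1) mice that were then infected with LmOVA (an ovalbumin-expressing Listeria strain). On day 7 the cells were sorted by CD45.2 and Ametrine. The labels do not say in which cells Bdh1 was deleted, how the knockout was made, the age of the animals, or whether the replicates of a group came from separate donors or hosts. The p-values therefore measure the spread between these libraries only.

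Oxct1 was at 63.1 ± 5.73 CPM (counts scaled to library size) in the 4 control libraries (mean ± SD throughout) and 5.16 ± 0.369 CPM in the 5 DKO libraries, and Bdh1 was at 30.5 ± 4.16 and 10.6 ± 1.24 CPM. The DKO level was 8.17% of control for Oxct1 and 34.9% for Bdh1. Libraries held 45205993 to 59853080 counts in genes. The defining genes of CD8 T cells were abundant, with Cd8b1, Cd8a and Cd3e at 662.9 CPM or more in all 9 libraries, and Cd4 was at most 0.662 CPM. Of 8 such genes, Cd8b1 fell in DKO. Control replicate 1 stood apart on the first principal component (-79.1, against -7.25 to 23.5 in the others), and control replicate 3 on the second (-70.2, against -5.59 to 20.2). Control replicate 1 also had the most unmapped reads, 16.7% against 10.3 to 12.3% in the others, and the lowest share of reads in genes, 67.0% against 71.8 to 74.0%. Counts of called genes and the values of some of the genes that moved are given with and without it.

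The 50 tested genes covered a wide range of levels. Levels of different genes were compared as mean CPM per kilobase of exon over the 9 libraries. The highest was that of Txnip, the thioredoxin-binding protein that also restrains glucose uptake, at 225 CPM per kilobase. Next came Txn1 (cytosolic thioredoxin, 132 CPM per kilobase), Prdx1 (a cytosolic peroxiredoxin, 112) and Gpx1 (the main cytosolic glutathione peroxidase, 99.3). Gstp1, a glutathione transferase, was at 70.1, Prdx3, the mitochondrial peroxiredoxin, at 60.8, and Cat, catalase, at 54.5 CPM per kilobase. These 7 genes lay between the 93.3 and 98.8 percentiles of all tested genes on this scale. The order differed between the groups for Cat, which was at 76.9 CPM per kilobase in control and 36.6 in DKO. By the mean over all libraries, the lowest tested gene was Nqo1, a quinone reductase widely used as a readout of NRF2, at 0.219 CPM per kilobase, above which stood Gpx3 (0.239) and Gstt3 (0.342), while in control alone Nqo1 (0.337) was above Gpx3 (0.243). Exon length is the union over all annotated transcripts, so a gene with a long unused exon is placed too low.

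**Figure D1:**
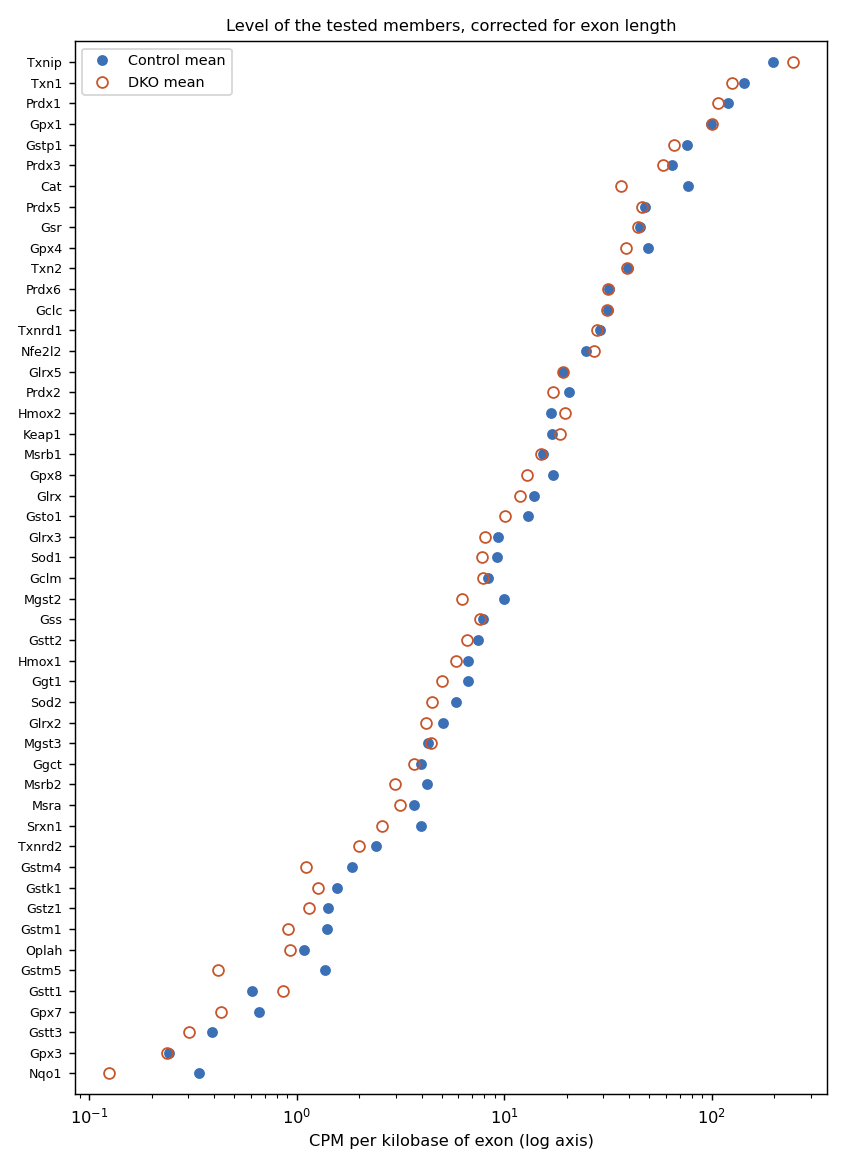
Mean level of each of the 50 tested genes as CPM per kilobase of exon on a log axis, ordered by the mean over all libraries, with filled circles for control (n = 4) and open circles for DKO (n = 5). Txnip is highest at 225 and Nqo1 lowest at 0.219 CPM per kilobase, and the circles of Cat are clearly separated near the top of the order.

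The remaining 3 genes had too few counts to test. Sod3, the extracellular superoxide dismutase, had 0 counts in control, which allows a level of up to 0.0145 CPM, and 2 counts in DKO. Gsta4, a glutathione transferase for lipid aldehydes, had 12 counts over control and 16 over DKO, and Mgst1, a microsomal transferase, had 11 and 26. These limits cover counting error only, since PCR copies without molecular identifiers are not independent molecules. All 3 genes were at or near 0 in these libraries.

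The comparison of DKO with control asks how the intended loss of ketone body use alters RNA levels, here for the antioxidant genes. Of the 50 tested genes, 4 fell in DKO and 0 rose at an adjusted p under 0.05 in the quasi-likelihood test of edgeR, adjusted by Benjamini-Hochberg over all genes. The 4 were Cat, Mgst2, Srxn1 and Sod2. Among all 14918 genes, 2.83% were called in either direction, 1.51% as lower and 1.32% as higher. Without Cat, the count was 3 of 49. Cat was set apart when the list was drawn up as a possible off-target of the Oxct1 hairpin. The hairpin's sequence is not given in the sources used here, and this was not tested. At an unadjusted p under 0.05, 14 of the 50 genes were lower and 2 were higher, where 16.0% of all genes reached that p in either direction and 8.25% on the lower side. With DESeq2, 7 of the 50 passed the adjusted threshold, and with limma-voom 6, where the shares of all genes were 7.10% and 6.68%. In simulated data DESeq2 made 23.94% false calls, edgeR 4.71% and limma-voom 5%. The simulation used edgeR's own dispersion estimates, which may favour edgeR, so it does not rank the tools on the real data. In what follows, a gene passed the threshold where it did so in edgeR with all 9 libraries.

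Cat encodes the peroxisomal enzyme that splits hydrogen peroxide into water and oxygen (ENSMUSG00000027187.10, minus strand of chromosome 2, 103453849 to 103485160 in GRCm38). It was at 174, 214, 209.9 and 206 CPM in control replicates 1 to 4 and at 89.8, 97.5, 95.0, 99.9 and 96.5 CPM in DKO replicates 1 to 5. The lowest control library was far above the highest DKO library, and the 5 DKO libraries lay close together. The DKO mean was 47.6% of control, and the log2 change (the fitted log2 ratio of DKO to control) was -1.07 ± 0.08 (SE, adjusted p 6.31e-05, edgeR). Control replicate 1 was the lowest of the controls, and without it the log2 change was -1.15. Cat kept the threshold without each library in turn, with an adjusted p of at most 7.35e-04 in edgeR.

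Mgst2 encodes a microsomal glutathione transferase that can also make leukotriene C4 (ENSMUSG00000074604.9, plus strand of chromosome 3, 51660360 to 51682677). Its control libraries held 42.8, 33.3, 35.1 and 36.9 CPM and its DKO libraries 23.6, 22.7, 20.3, 24.97 and 23.8 CPM. No DKO library reached the level of any control library. The mean fell to 62.4% of control (log2 change -0.68 ± 0.10 SE, adjusted p 0.00546, edgeR), and the threshold was kept without each library in turn (adjusted p up to 0.0209).

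Srxn1 encodes sulfiredoxin, which restores peroxiredoxins whose cysteine has been overoxidised (ENSMUSG00000032802.8, plus strand of chromosome 2, 152105516 to 152111376). It was at 10.9, 11.3, 10.3 and 11.9 CPM in control, against 6.92, 7.65, 6.39, 6.25 and 9.03 CPM in DKO. The groups did not overlap, and DKO replicate 5 came nearest to control. The mean fell to 65.2% of control (log2 change -0.62 ± 0.13 SE, adjusted p 0.0352, edgeR). It lost the threshold when control replicate 2 or 4, or DKO replicate 1, 2, 3 or 4, was left out (adjusted p 0.0623 to 0.0987).

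Sod2 encodes the manganese superoxide dismutase of mitochondria (ENSMUSG00000006818.5, plus strand of chromosome 17, 13006846 to 13040063). Control libraries were at 62.4, 56.7, 56.6 and 59.2 CPM and DKO libraries at 42.3, 45.9, 45.2, 47.2 and 44.2 CPM. All DKO libraries were below all control libraries, and the spread within each group was small. The mean fell to 76.6% of control (log2 change -0.39 ± 0.07 SE, adjusted p 0.0214, edgeR). The threshold was lost when control replicate 4, or DKO replicate 1, 3 or 5, was left out (adjusted p 0.0557 to 0.0740).

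**Figure D2:**
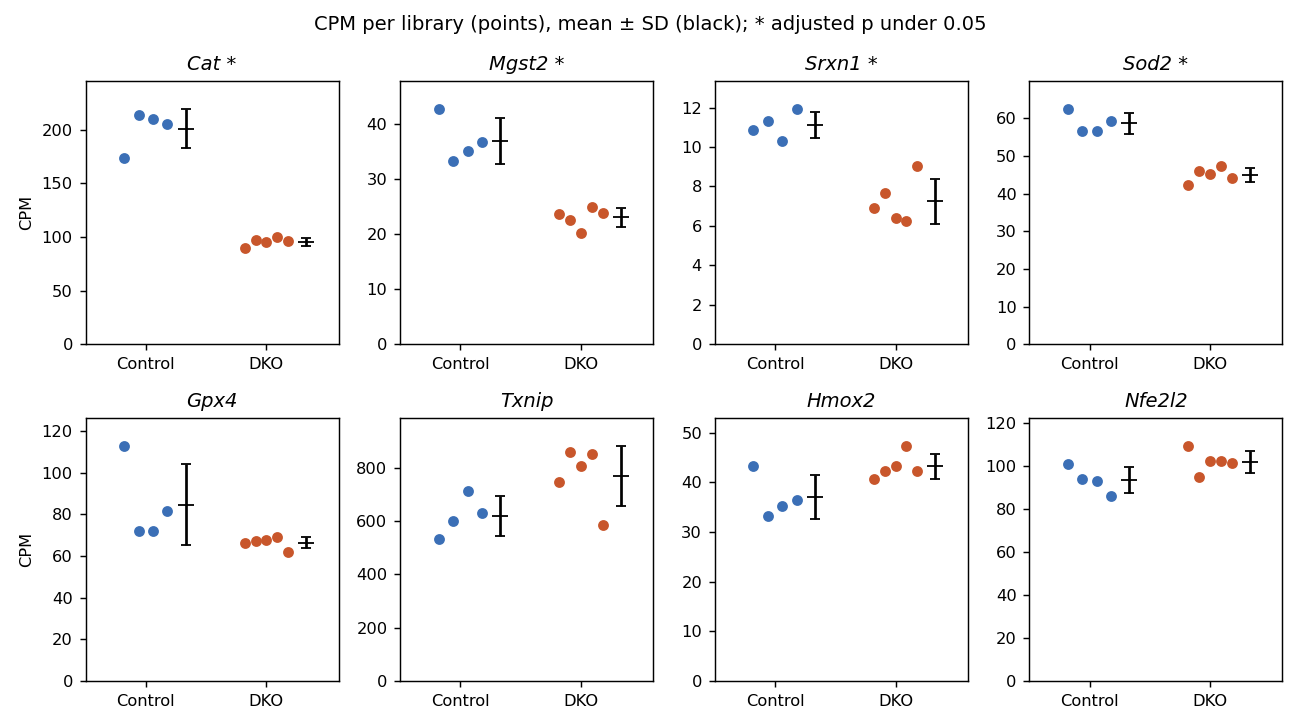
CPM in each library (points, control blue and DKO orange) with the mean ± SD of each group (black; n = 4 and 5) for the 4 genes that fell and for Gpx4, Txnip, Hmox2 and Nfe2l2, which did not pass the threshold. The upper row shows groups that do not overlap, with Cat at 174 to 214 CPM in control, against 89.8 to 99.9 CPM in DKO, and the lower row shows a single high control library for Gpx4 and Hmox2 and a single low DKO library for Txnip.

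Summed levels of 2 marker lists moved with the groups beside these 4 genes. Summed CPM of 11 myeloid genes was 161 to 197 in control and 114 to 123 in DKO, without overlap. Of the 8 that were tested, 2 fell, Ctss (mean 81.1 CPM in control and 51.2 in DKO) and Cd68 (29.1 and 16.8). Itgam, another myeloid gene of the list, was at 58.9 ± 19.1 CPM in control, against 38.1 ± 5.39 CPM in DKO, with overlap (adjusted p 0.148, edgeR). Ctss, Itgam and Cd68 had the highest means of the list and carry most of its sum. Of the genes that define macrophages and monocytes, 4 were low in both groups. Lyz2 was at 1.47 to 13.6 CPM and Csf1r at 0.495 to 5.63 CPM over the 9 libraries. C1qa was at 0.495 to 2.14 CPM and Adgre1 at 0.0584 to 2.06 CPM. For Csf1r, the added strand columns gave 5.54 times the unstranded count, so its level is uncertain. The mean of Lyz2 was 2.43 CPM in control and 5.84 in DKO, and the other 3 means went from 1.84 to 2.37, from 1.13 to 1.21 and from 1.04 to 1.01 CPM. Cd14 (mean 0.359 CPM in control and 0.334 in DKO) was near 0. So were S100a8 (0 and 0.122), S100a9 (0.0103 and 0.103) and Mpo (0.0195 and 0.0327). Summed CPM of 16 proliferation genes was 412 to 527 in control and 619 to 1213 in DKO, and 13 of the 16 rose. Erythroid genes, whose cells are rich in catalase and peroxiredoxin 2, summed to 2.14 to 33.3 CPM in control, against 0.714 to 14.4 CPM in DKO. The part of the myeloid and proliferation lists in the antioxidant genes' values was not tested. In bulk RNA, fewer cells of a type and less RNA per cell cannot be told apart.

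Beyond the 4 called genes, the fitted values of the list lay mostly on the lower side. Of the 50 genes, 42 had a fitted log2 change below 0, against 51.4% of all tested genes. The median was -0.21 with Cat and -0.21 without it, and -0.01 over all genes. CPM ranges of the groups did not overlap for 7 genes, all lower in DKO, where 8.71% of all genes did not overlap and 4.09% were lower without overlap. Besides the 4 called genes these were Gpx4, Glrx2 and Msrb2.

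**Figure D3:**
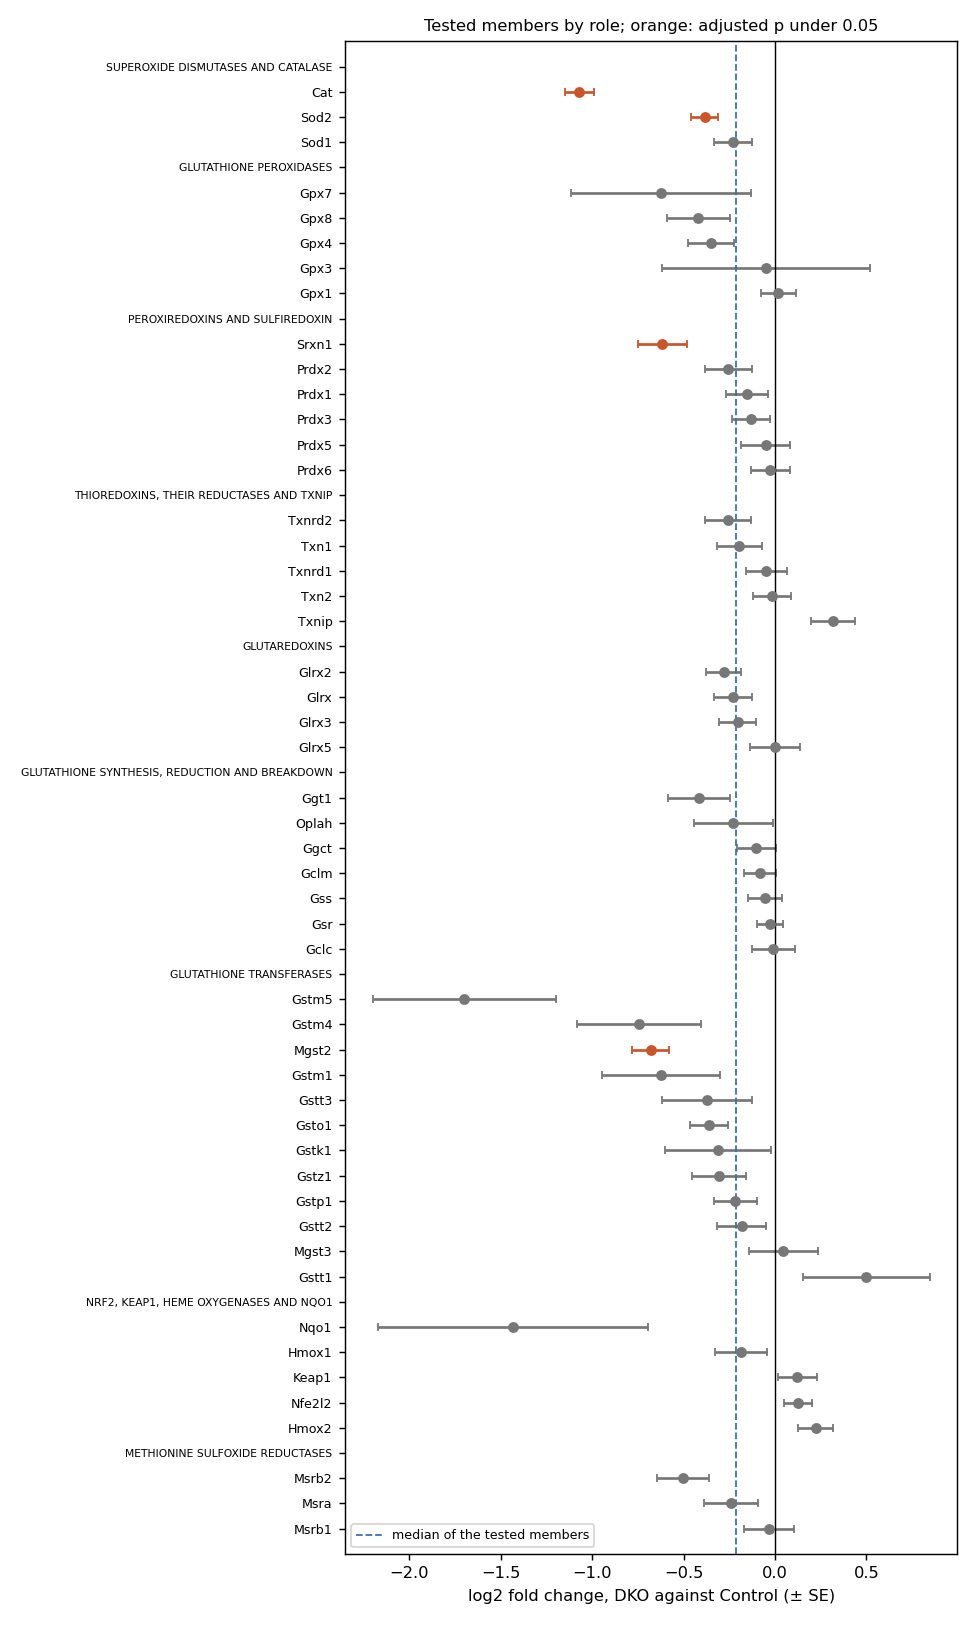
Fitted log2 fold change, DKO against control, with its SE (bars) for the 50 tested genes, grouped by role. Orange marks an adjusted p under 0.05, and the dashed line is the median of -0.21. The 4 orange points are Cat, Sod2, Srxn1 and Mgst2, and 8 genes lie to the right of 0.

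This lean moved with control replicate 1. That library held the highest value of all 9 for 29 of the 50 genes, and its median deviation from each gene's mean was 0.38 on the log2(CPM + 0.1) scale, against -0.15 to 0.10 in the other 8. Over all tested genes, the median deviation in that library was 0.02. In control replicate 1, the shortest 25% of tested genes by exon length had a median deviation of 0.35 and the longest 25% of -0.31, and 18 of the 50 antioxidant genes belong to the shortest. Whether length bears on the fold changes was not tested. Median exon length was 3046.5 bases for the 50 genes and 3608 bases for all tested genes. Without control replicate 1 the median of the antioxidant genes was -0.13 (-0.11 without Cat), and 38 of 50 were below 0. The log2 change of 27 of the 50 moved by more than 1.5 times, and 4 turned sign. The called genes then were the same 4 plus Hmox2, which rose (adjusted p 0.0441, edgeR), where 4.93% of all genes were called. Without control replicates 1 and 3 the median was -0.17, with 37 of 50 below 0 and the same 4 genes called, where 3.08% of all genes were called.

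**Figure D4:**
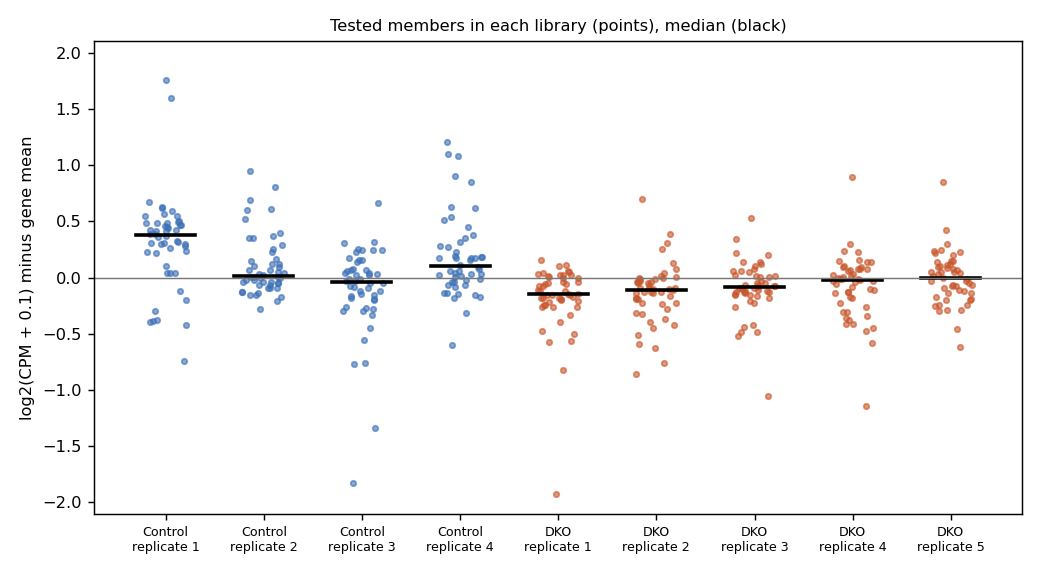
Each point is 1 of the 50 tested genes in 1 library, as log2(CPM + 0.1) minus that gene's mean over the 9 libraries, with control in blue, DKO in orange and the median of each library as a black bar. The median is 0.38 in control replicate 1 and between -0.15 and 0.10 in the others.

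**Figure D5:**
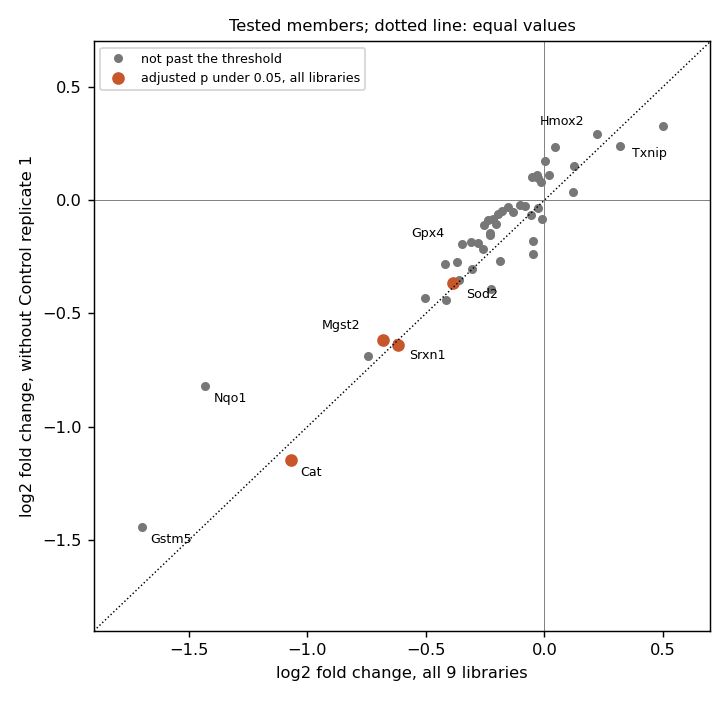
Fitted log2 change of the 50 tested genes with all 9 libraries (horizontal axis) and without control replicate 1 (vertical axis), with a dotted line of equal values. The 4 genes past the threshold (orange) stay near the line, with Cat at -1.07 and -1.15, while most grey points between -0.5 and 0 lie above it.

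Among the superoxide dismutases and catalase, 2 of the 3 tested genes fell, as described. Sod1, the copper and zinc dismutase of the cytosol, was at 42.9, 36.0, 33.8 and 32.9 CPM in control, against 28.8 to 33.5 CPM in DKO. DKO replicates 2 and 4 lay above the lowest control, and Sod1 did not pass the threshold (log2 change -0.23 ± 0.10 SE, adjusted p 0.298, edgeR).

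None of the 5 glutathione peroxidase genes passed the threshold. Gpx4, which reduces lipid peroxides in membranes and so guards against ferroptosis, was at 113, 72.2, 72.1 and 81.7 CPM in control, against 66.5, 67.1, 67.8, 69.1 and 61.8 CPM in DKO. The groups did not overlap, but control replicate 1 was well above the other controls. The log2 change was -0.35 ± 0.13 (SE, adjusted p 0.197, edgeR) with all libraries and -0.19 (adjusted p 0.120) without control replicate 1, and with 1 surrogate variable Gpx4 passed (-0.23, adjusted p 0.0375). Gpx8, a peroxidase of the endoplasmic reticulum, was at 17.97 ± 3.72 CPM in control, against 13.4 ± 2.73 CPM in DKO (adjusted p 0.266, edgeR). Its log2 change was -0.42 with all libraries and -0.28 without control replicate 1. Gpx1 was at 142 ± 20.6 and 144 ± 7.79 CPM (log2 change 0.02 ± 0.10 SE). Gpx7 and Gpx3 were under 1 CPM on average in both groups.

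Among peroxiredoxins, which are peroxidases that act through a reactive cysteine, none of the 5 genes passed the threshold, whereas Srxn1 did. Prdx1 was at 461, 338, 327 and 324 CPM in control, against 305, 311, 299, 347 and 367 CPM in DKO. Only control replicate 1 exceeded every DKO library. The log2 change of Prdx1 was -0.15 ± 0.12 (SE, adjusted p 0.561, edgeR), and -0.03 without control replicate 1. Prdx2 (62.3 ± 14.0 and 52.2 ± 2.73 CPM) had the smallest p of the 5 (adjusted p 0.372), and its log2 change was -0.25 with all libraries and -0.11 without control replicate 1. Prdx3, Prdx5 and Prdx6, in mitochondria, several compartments and the cytosol, had log2 changes of -0.13, -0.05 and -0.03, which were -0.05, 0.10 and 0.10 without control replicate 1. For Prdx2 and Prdx5, adding the strand columns gave 1.31 times the unstranded count, so their levels are uncertain.

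In the thioredoxin group, none of the 5 genes passed the threshold, and Txnip had the smallest p. It was at 531, 598, 713 and 628 CPM in control, against 748, 858, 808, 850.0 and 585 CPM in DKO. Of the 5 DKO libraries, 4 were above all controls and replicate 5 was below 3 of them. The log2 change of Txnip was 0.32 ± 0.12 (SE, adjusted p 0.225, edgeR). Added strand columns gave 1.53 times its unstranded count, so its level is uncertain. Txn1 and its mitochondrial counterpart Txn2 had log2 changes of -0.19 and -0.02, and their cytosolic reductase Txnrd1 of -0.05. Without control replicate 1 these were -0.06, 0.08 and -0.18. Txnrd2, the mitochondrial reductase, was at 10.5 ± 1.22 CPM in control, against 8.81 ± 0.882 CPM in DKO (adjusted p 0.349). Its level is uncertain too, as the strand columns added to 1.42 times the unstranded count.

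Of the 4 glutaredoxin genes, whose products use glutathione to reduce disulfides or carry iron-sulfur clusters, none passed. Glrx2, which acts in mitochondria, was at 53.5, 41.8, 41.9 and 40.8 CPM in control, against 35.2, 37.3, 37.4, 36.5 and 37.0 CPM in DKO. The groups did not overlap, and control replicate 1 was again the highest. Its log2 change was -0.28 ± 0.10 (SE, adjusted p 0.167, edgeR) and -0.19 without control replicate 1. Glrx, the cytosolic form, was at 76.6 ± 11.6 and 65.3 ± 3.51 CPM (adjusted p 0.306), and its log2 change went from -0.23 to -0.15 without control replicate 1. Glrx3 had a log2 change of -0.21, and -0.10 without control replicate 1. Glrx5, which serves mitochondrial iron-sulfur cluster assembly, was at 70.5 ± 17.8 and 70.6 ± 2.81 CPM.

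For glutathione itself, none of the 7 genes passed the threshold, and the log2 values of the 4 enzymes of synthesis and reduction lay between -0.08 and -0.01. Gclc and Gclm encode the catalytic and modifier subunits of glutamate-cysteine ligase, the rate-limiting step of glutathione synthesis. Gclc was at 118 ± 14.3 CPM in control, against 118 ± 15.1 CPM in DKO (log2 change -0.01 ± 0.12 SE, adjusted p 0.979, edgeR), with 91.4 CPM in DKO replicate 4 against 120.5 to 128 CPM in the other DKO libraries. Gclm was at 52.3 ± 5.24 and 49.4 ± 2.04 CPM (log2 change -0.08 ± 0.09 SE). Gss, the synthase of the second step, and Gsr, which returns oxidised glutathione to its reduced form, had log2 changes of -0.06 ± 0.09 (SE) and -0.03 ± 0.07 (SE). Gsr was at 124 ± 3.29 and 122 ± 6.5 CPM.

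Ggt1, which breaks down glutathione outside the cell, had a different pattern. It was at 22.4, 23.5, 21.6 and 24.0 CPM in control, against 13.7, 16.3, 16.0, 14.0 and 25.7 CPM in DKO. Of the DKO libraries, 4 were below every control and replicate 5 was above every control. The log2 change was -0.42 ± 0.17 (SE, adjusted p 0.263, edgeR), and without DKO replicate 5 it was -0.61 (adjusted p 0.0175). Ggct, of the intracellular breakdown route, had a log2 change of -0.10, and Oplah, which recovers glutamate from 5-oxoproline, of -0.23 ± 0.22 (SE). Added strand columns gave 5.82 times the unstranded count of Oplah, so its value is uncertain.

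Of 12 tested glutathione transferase genes, which attach glutathione to reactive compounds, only Mgst2 passed, and 10 of the 12 had a fitted value below 0. Gsto1, an omega class enzyme, was at 27.3, 23.5, 28.3 and 25.6 CPM in control, against 19.7, 18.2, 20.9, 19.4 and 23.8 CPM in DKO. The groups overlapped through DKO replicate 5 and control replicate 2 alone. Its log2 change was -0.36 ± 0.10 (SE, adjusted p 0.102, edgeR), with an adjusted p of 0.0167 in DESeq2. Gstp1, the most abundant transferase per length, was at 118 ± 23.9 and 101 ± 3.37 CPM (adjusted p 0.397), and its log2 change went from -0.22 to -0.08 without control replicate 1. Gstm5 is named here after its values were seen. Its log2 change was -1.70 ± 0.50 (SE, adjusted p 0.106, edgeR), from 2.64, 1.49, 0.973 and 1.85 CPM in control to 0.138, 0.982, 0.336, 0.312 and 0.888 CPM in DKO, and DKO replicate 2 overlapped control replicate 3. Gstm5 passed in DESeq2 (adjusted p 0.0170), in limma-voom (0.0213) and with summed strand columns (0.0448). Those columns added to 1.32 times its unstranded count, so its level is uncertain. The other mu class genes, Gstm1 and Gstm4, had values of -0.62 and -0.74 at 0.862 to 4.83 CPM, and mu class copies share sequence, so reads may be lost or misassigned between them. Mgst3, Gstk1, Gstz1, Gstt2, Gstt3 and Gstt1 ranged from -0.37 to 0.50, with an adjusted p of at least 0.344. Gstt2 went from -0.18 to -0.05 without control replicate 1. The level of Gstz1 is uncertain, as its strand columns added to 1.33 times the unstranded count.

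None of the 5 genes around NRF2 passed. Nfe2l2 was at 101, 93.9, 93.3 and 86.4 CPM in control, against 109.5, 94.9, 103, 102 and 102 CPM in DKO (log2 change 0.13 ± 0.08 SE, adjusted p 0.467, edgeR). Keap1 was at 79.7 ± 11.1 and 86.8 ± 7.72 CPM (log2 change 0.12 ± 0.11 SE). Hmox1, the inducible heme oxygenase, was at 11.7 ± 1.32 and 10.3 ± 1.64 CPM (log2 change -0.19 ± 0.14 SE, adjusted p 0.563). Nqo1 was at 1.09, 0.438, 0 and 0.563 CPM in control, against 0.138 to 0.273 CPM in DKO. Its log2 change of -1.43 ± 0.74 (SE, adjusted p 0.378, edgeR) rests on 110 counts over control and 49 over DKO, and moved to -0.82 without control replicate 1 and to -1.84 without control replicate 3 (adjusted p 0.0468). Hmox2, the constitutive heme oxygenase, was at 43.3, 33.2, 35.4 and 36.4 CPM in control, against 40.6, 42.4, 43.3, 47.4 and 42.4 CPM in DKO. Control replicate 1 was the only control within the DKO range. The log2 change was 0.22 ± 0.10 (SE, adjusted p 0.281, edgeR) with all libraries and 0.29 without control replicate 1. Hmox2 also passed in limma-voom (adjusted p 0.0301) and with 1 surrogate variable (0.0243). Added strand columns gave 1.86 times its unstranded count, so its level is uncertain, as is that of Keap1 (1.46 times).

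All 3 methionine sulfoxide reductase genes, which repair oxidised methionine, had fitted values below 0 and none passed. Msrb2, the mitochondrial enzyme, was at 6.83, 5.71, 4.97 and 5.78 CPM in control, against 4.39, 4.06, 4.39, 3.84 and 3.87 CPM in DKO, without overlap. Its log2 change was -0.50 ± 0.14 (SE, adjusted p 0.0905, edgeR), and DESeq2 gave an adjusted p of 0.00543. Msra was at 15.8 ± 3.60 and 13.4 ± 1.20 CPM (adjusted p 0.474), and Msrb1, a selenoprotein, at 19.2 ± 4.33 and 18.8 ± 1.02 CPM (adjusted p 0.933). The log2 change of Msra went from -0.24 to -0.09 without control replicate 1.

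Promoter sequence was examined because many of these genes are known as NRF2 targets. RefSeq promoter windows (GRCm38.p6, 250 bases before to 50 after each start) were matched by symbol for 44 of the 53 genes and searched on both strands for TGACNNNGC, the core of the antioxidant response element. Of the 44 genes, 11 (25%) held it in at least 1 window, against 14.0% of all 27025 genes with a window. A gene with more windows can match more often. By window, 20.6% of the 63 windows of these genes held it, against 12.4% of all 32851. Mean GC content was 57.7% in the windows of the antioxidant genes and 53.8% in all windows. The core also overlaps sites of other factors, and a match is a description only. Srxn1 was the only called gene with a match, whereas the windows of Cat, Mgst2 and Sod2 held none. The match in Srxn1 and matches before the start of 6 of the other genes are shown 5′ to 3′ on the gene's strand, with the core in capitals (as its reverse complement where it lies on the opposite strand).
Srxn1: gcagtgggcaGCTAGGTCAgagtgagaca
Prdx1: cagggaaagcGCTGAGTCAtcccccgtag
Txnrd1: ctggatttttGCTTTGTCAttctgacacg
Gclm: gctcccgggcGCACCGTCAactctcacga
Sod1: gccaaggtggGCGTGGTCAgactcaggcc
Gstm5: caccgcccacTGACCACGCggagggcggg
Nfe2l2: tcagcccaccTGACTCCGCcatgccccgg

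The Srxn1 stretch lies at chr2:152105542-152105570 (plus strand), with its core from base 29 after the start. The core begins 133 bases before the start in Prdx1 (chr4:116685456-116685484, plus strand), 92 bases before it in Txnrd1 (chr10:82859104-82859132, plus strand) and 134 in Gclm (chr3:122245413-122245441, plus strand). In Sod1 (chr16:90220696-90220724, plus strand) the distance is 56 bases, in Gstm5 (chr3:107895802-107895830, plus strand) 42, and in Nfe2l2 (chr2:75704885-75704913, minus strand) 240. Of 10 tested genes with a match, 1 was called, and their fitted log2 changes ran from -1.70 to 0.13 with a median of -0.19. Of 33 tested genes with a window and no match, 3 were called, with a median of -0.23. Those with a window and no match ran from -1.43 to 0.50. Sequence outside the windows was not searched. Gclc, Hmox1, Gsr, Prdx6, Gstt2, Oplah, Msra, Sod3 and Gsta4 had no window, so they were not searched.

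The other genes of the pathway were a list of 50 genes for NADPH supply, cystine and cysteine supply, iron storage, further thiol and quinone enzymes, NRF2 partners, selenoprotein synthesis and superoxide production. Of these, 44 were tested, 1 fell (2.27%) and 0 rose, where 2.83% of all genes were called in either direction. Their median log2 change was 0.02. The one that fell was Ncf4, a cytosolic subunit of the superoxide-producing NADPH oxidase, at 127, 100.2, 95.3 and 117 CPM in control, against 79.0, 79.8, 85.8, 77.4 and 84.8 CPM in DKO, without overlap (log2 change -0.43 ± 0.10 SE, adjusted p 0.0357, edgeR). Ncf4 lost the threshold without control replicate 4 or any 1 DKO replicate (adjusted p 0.0716 to 0.103). Me2, the mitochondrial malic enzyme, had a log2 value of -0.21 (adjusted p 0.131), and without control replicate 1 it fell (-0.23, adjusted p 0.0293), as it did in DESeq2, limma-voom and with 1 surrogate variable (adjusted p 0.0127, 0.0200 and 0.0220). Fth1, the heavy chain of the iron store ferritin, had a log2 value of 0.11 (adjusted p 0.666), and it rose without control replicate 1 (0.23, adjusted p 0.0249), in limma-voom (adjusted p 0.0495) and with 1 surrogate variable (0.0154). Pstk, a kinase needed to make selenocysteine, had a value of -0.27 (adjusted p 0.155) and passed in DESeq2 (0.0415). Its strand columns added to 1.81 times the unstranded count, so its level is uncertain. Each of these settings called 3 pathway genes. Of all genes, DESeq2 called 7.10% and limma-voom 6.68%. The shares were 7.70% with 1 surrogate variable and 4.93% without control replicate 1. The gene of the cystine importer, Slc7a11, had 0 counts in all 9 libraries, which allows up to 0.0145 CPM in the control group and 0.0117 in DKO, and the 5 other untested genes, Me1, Cbs, Cth, Chac1 and Osgin1, had 1 to 42 counts per group.

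By position, the 50 tested genes lay on many chromosomes. Sod1, Txnrd2 and Hmox2 lie on chromosome 16, as the targeted Bdh1 does, at 58.8, 13.0 and 26.7 Mb from it, and none of the 3 passed the threshold. Their log2 changes were -0.23, -0.26 and 0.22.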

How the data were processed

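The 4 control and 5 DKO libraries were made with Takara and Illumina kits, per the labels' protocols. What the authors deposited are raw counts for each gene, as STAR writes them, without and with regard to strand. Trim Galore 0.6.0, STAR 2.7.8a and mm10 are named in the submitters' processing notes. The annotation is not given in the sources used here. Unstranded counts were used, because the strand columns were nearly equal (49.9 to 50.1% in the first). Such counting drops reads shared by overlapping genes. Reads outside genes (unmapped 10.3 to 16.7%, multimapping 5.8 to 6.79%, no feature 4.01 to 5.2%, ambiguous 4.97 to 5.31%) stayed out of library sizes. Of 55471 identifiers, 55230 matched GENCODE M21 (GRCm38) without version.

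Tests used edgeR 4.0.16 in R 4.3.3 (robust quasi-likelihood F-test, TMM, filterByExpr with a minimum count of 10 and total of 15) with Benjamini-Hochberg adjustment over 14918 genes at 0.05. CPM uses TMM-scaled totals. DESeq2 1.42.0, limma-voom 3.58.1, sva 3.50.0, other filters, summed strands, a replicate block and left-out libraries were alternatives. No 2 libraries were duplicates by chi-square. Data for this comparison were simulated from edgeR's dispersion estimates over 14918 genes, with 100 genes changed by 0.5 and 100 by 1 (log2). In these, edgeR without a count filter recovered 22.0% and 59.0%, with 4.71% false calls. DESeq2 and limma-voom were run after the count filter, on 14630 genes with 97 and 99 of the changed genes. There DESeq2 recovered 42.3% and 67.7%, with 23.94% false calls, and limma-voom recovered 20.6% and 56.6%, with 5%. Named genes were those past the threshold, the 2 of smallest p and the highest per length in each of 9 roles, 8 genes named in any case, and the leading pathway genes. Nnt matched 2 identifiers and was left out. The planned description of selenocysteine residues was not made, as no protein sequences were used here. Figures used matplotlib 3.10.9. The genes, lists and tests were chosen with earlier results of these data known.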

Additional observations from a re-analysis of the deposited data

Results flagged for a closer look

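Single libraries stood far from the rest of their group for 5 of 70 gene and group combinations, by a gap to the nearest library divided by the whole range (Dixon's ratio, above its critical value), where chance gives about 1 in 20. Control replicate 1 was high for 3 genes. These were Gpx1 (ratio 0.874, 173 CPM against 134 in the next control), Prdx1 (0.897, 461 against 338 CPM) and Glrx2 (0.916, 53.5 against 41.9 CPM). In DKO, replicate 5 was high for Ggt1 (0.788, 25.7 against 16.3 CPM) and replicate 4 was low for Gclc (0.788, 91.4 against 120.5 CPM).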

How the results depend on the processing

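Cat and Mgst2 kept direction and threshold under all 17 alternatives other than the replicate block, as did Oxct1 and Bdh1. Counts of called antioxidant genes (4, or 3 without Cat), other pathway genes (1) and all genes (422) depended on the setting. DESeq2 gave 7, 6, 3 and 1059, limma-voom 6, 5, 3 and 996, and 1 surrogate variable 6, 5, 3 and 1148. Leaving out 1 library gave 2 to 5, 1 to 4, 0 to 3 and 179 to 749, and 7 to 14 genes without overlap (14, without control replicate 3, where 13.2% of all genes did not overlap). Without control replicates 1 and 3 it was 18, where 21.5% of all genes did not overlap. The median of the antioxidant genes ranged from -0.27 to -0.13 (-0.26 to -0.11 without Cat). Srxn1 missed the threshold with no count filter (adjusted p 0.0513). The replicate block left 1, 0, 0 and 67 calls, with Cat the 1. By edgeR with the block, 9 of the 49 other genes and 3 pathway genes had an unadjusted p under 0.05, where 10.7% of all genes did. Numbers showed no pairing of the libraries, as correlations of same-numbered deviations were -0.117 to 0.012 and no control correlated best with its own number. The best correlation of each control was only 0.056 to 0.155, so this check cannot exclude shared donors, hosts or batches. The sign of 10 genes turned when 1 library was left out. Gpx3 ranged from -0.38 to 0.44, Mgst3 from -0.05 to 0.24, Prdx5 from -0.15 to 0.10, Prdx6 from -0.09 to 0.10, Txn2 from -0.10 to 0.08 and Txnrd1 from -0.18 to 0.005. For the others, Gpx1 ranged from -0.027 to 0.11, Glrx5 from -0.096 to 0.173, Msrb1 from -0.13 to 0.113 and Gclc from -0.086 to 0.0702. Glrx5 was -0.018 with the stricter filter and -0.00304 with summed strands. Msrb1 was 0.036 in limma-voom, 0.088 with a surrogate variable and 0.034 without control replicates 1 and 3. In limma-voom, Gclc was 0.00067 and Gclm 0.00496. The cause was not tested. Group means of Nqo1, Gpx3 and Gpx7 were under 1 CPM, and folds near 0.5 on the log2 scale were seldom recovered in simulation.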
